A study of Auxenochlorella pyrenoidosa with 12 samples.

Results

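The members described here are 92 of 16413 assembled transcript features of Auxenochlorella pyrenoidosa, a single-celled green alga, that were low in cultures at 0.5 g/L NaNO3 and at ordinary levels at higher nitrate and without nitrate. They were chosen from the measured values. CPM is the estimated count of a feature as a share of its library's total, in the usual counts-per-million scale. A member had group means of at least 5 CPM in N1.5, N1 and N0, an N0.5 mean of at most 0.4 times each of those means, and an N0 mean within 1.5-fold, either way, of the average of the N1.5 and N1 means. The low level in N0.5 and the similar level in N0 are therefore how the members were found, and they are described without a test.

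N1.5, the control, was labelled 1.5 g/L NaNO3. NaNO3 was lowered to 1 g/L in N1 and to 0.5 g/L in N0.5, and N0 had 0 g/L. Each group has 3 poly(A)-selected RNA libraries, described as biological repeats, and every library carries the cell line label SHOU-1002. No agent other than NaNO3 is named. The sources used here give no harvest time, growth stage or batch, so a difference between groups in any of these cannot be told apart from NaNO3. RNA came from whole cultures, in which fewer cells carrying a transcript and less of it per cell cannot be told apart.

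Green algae take up nitrate, reduce it to nitrite and then to ammonium, and build ammonium into glutamine and glutamate. When nitrogen runs short, many green algae slow growth and protein synthesis, degrade part of their photosynthetic apparatus and recycle its nitrogen, and store carbon as starch or as triacylglycerol. The study's title places these libraries in that setting of lipid accumulation. No feature is paired with a gene name, a protein or a sequence. The members are therefore described by level, length, pattern and name in the assembly, and nothing is said of their functions.

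Library totals lay between 22027761 and 24383226 estimated counts. A low level of features that were otherwise nearly restricted to N0 was present in the other libraries. These were 65 features with an N0 mean of at least 20 CPM and every other group mean at most 5% of it. Their median level, as a share of the N0 level, was 1.27, 1.32 and 0.474% in N0.5 replicates 1, 2 and 3, 0.837, 0.684 and 1.54% in N1.5, and 1.67, 0.783 and 1.15% in N1.

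Of the 16413 features, 10096 met the level condition and 6695 also met the N0 condition. These 6695 are called steady features below, since N0 stood near the level at high nitrate. The 92 members are 1.37% of them. The rule turned the other way, with an N0.5 mean at least 2.5 times each other group mean, found 61 steady features, or 0.911%. Over the steady features the N0.5 mean had a median of 90.6% of the mean of the other groups, and the central 90% of features lay between 49.6 and 180% of it.

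The members stood at a median of 30.9% of their lowest other group mean in N0.5, with a range of 4.46 to 39.9%. Read as a fold, the median member was 3.24-fold lower and the deepest 22.4-fold lower. The depth was at most 20% of the lowest other mean in 11 members, between 20 and 30% in 32, and above 30% in 49. The median level of the members was 11.4 CPM in N0.5, while N1.5 and N1 both had 40.5 CPM and N0 had 42.7 CPM.

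In all 92 members the 3 N0.5 libraries lay below all 9 other libraries, a pattern that 20.9% of the 15429 tested features and 34.9% of the steady features also showed. The choice of members nearly fixes this count, so nothing is read from it. In 85 members the highest N0.5 library was under 50% of the lowest of the 9 others. The choice of members favours such a gap too. No share over other features is given for it, and nothing is read from it. The narrowest gap was in the member ranked 82 by FPKM. Its N0.5 libraries had 0.844, 2.78 and 0.724 CPM, against 3.30 CPM in N0 replicate 3, the lowest of the others. N0.5 replicate 2 alone brought its groups close.

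**Figure D1:**
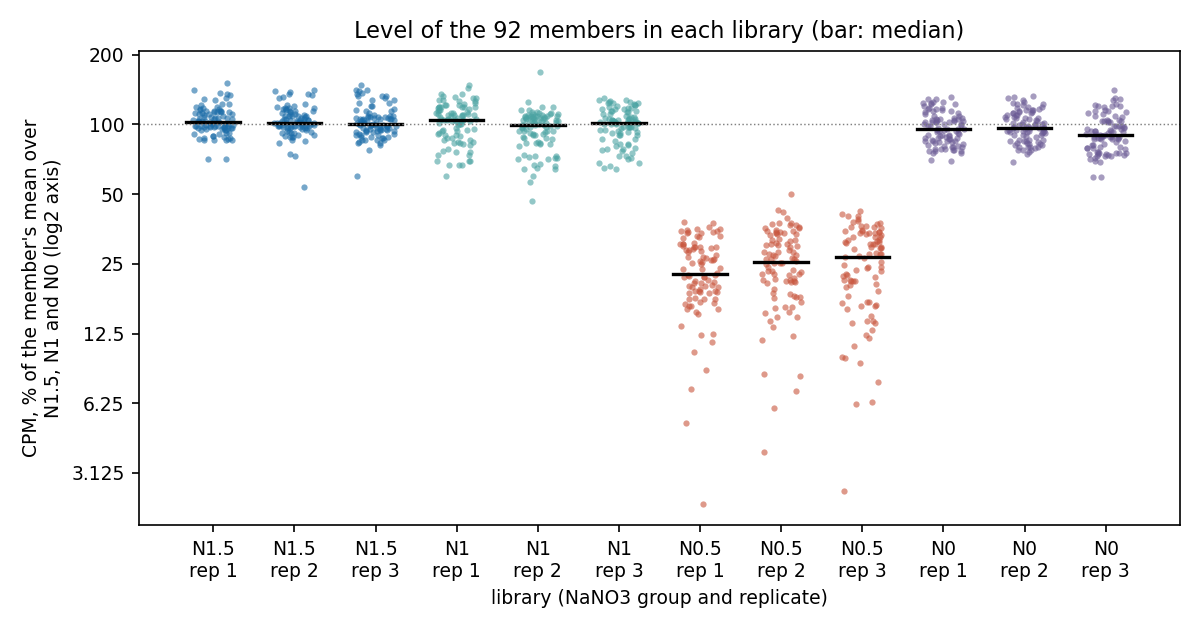
Each point is one of the 92 members in one library. The y axis gives its CPM as a percentage of its own mean over N1.5, N1 and N0, on a log2 axis, and the x axis gives the 12 libraries by NaNO3 group and replicate. Black bars are medians, which lay at 22.6, 25.5 and 26.8% in N0.5 replicates 1, 2 and 3 and between 90.2 and 105% in the other 9 libraries.

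Together the members held 0.395, 0.397 and 0.402% of the counts in N0.5 replicates 1, 2 and 3. The mean share was 1.41% ± 0.0093 for N1.5 libraries (SD, n = 3), 1.48% ± 0.0895 for N1, 1.37% ± 0.0345 for N0 and 0.398% ± 0.0037 for N0.5. The spread between N0.5 libraries was small beside the distance to the other groups. The 2 members with the highest CPM held 36.2% of the members' level in N1.5. Without them N0.5 held 0.225% ± 0.0089, while N1.5 held 0.898% ± 0.0033, N1 held 0.970% ± 0.0569 and N0 held 0.814% ± 0.0137. N0.5 replicate 3, the N0.5 library with the least trace of N0 features, was the highest N0.5 library in 45 members and the lowest in 27. No share over other features is given for these counts, and nothing is read from them.

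Most features chosen by the rule from part of the libraries also dipped in the libraries left out. The members themselves were chosen from all libraries, so no library is left in which to test them. The values below describe how far the rule repeated between replicates of the same groups, and they are no test of the members. The rule was applied to 8 libraries, leaving out all libraries of one replicate number, and the picks were then looked up in the 4 libraries left out. Over the 3 ways of doing this, 272 picks were made, and the same feature can be counted in each way. Of these picks, 216 (79.4%) had a held-out N0.5 library at most 0.4 times each of the other held-out libraries. The background was the features that met the level and N0 conditions in the same 8 libraries but were not picked. This set differs a little each time and is likewise counted over the 3 ways. Of these, 63 of 19711 (0.320%) had such a held-out level. They were chosen as not dipping in the 8 libraries, which favours a low share. The held-out N0.5 library was below all the other held-out libraries in 271 of 272 picks (99.6%) and in 46.3% of the features not picked.

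By replicate number, 76 of 89, 69 of 87 and 71 of 96 picks kept the full dip when replicates 1, 2 and 3 were held out. The median held-out N0.5 level was 29.0, 32.3 and 36.3% of the lowest other held-out library. The same figures for the features not picked were 105, 99.2 and 106%.

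**Figure D2:**
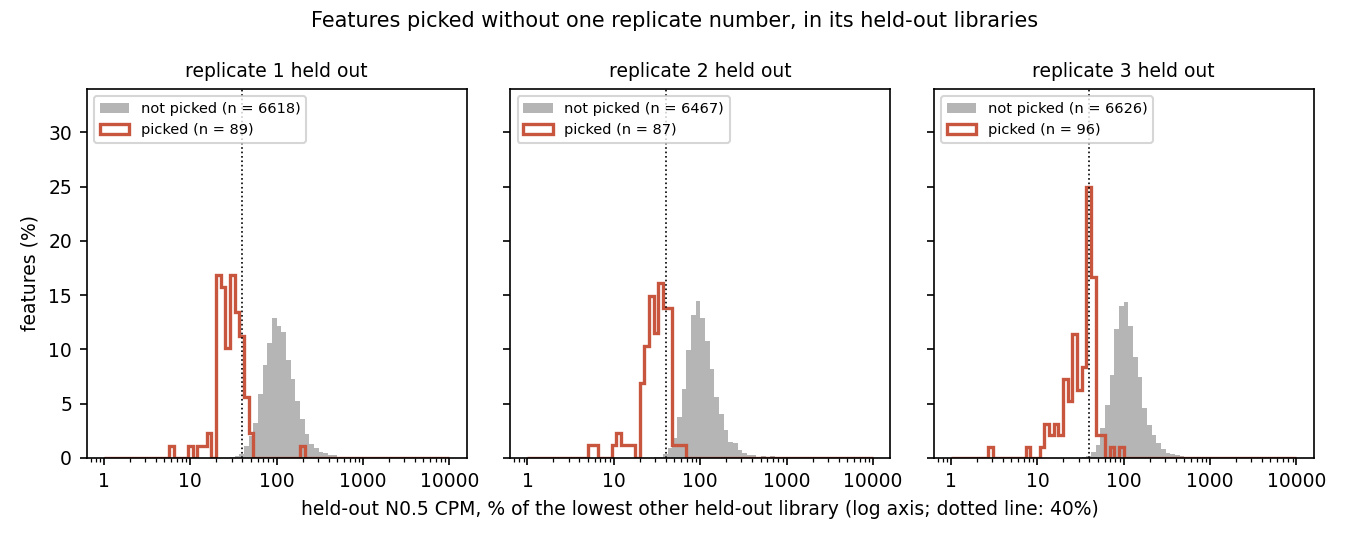
Each panel holds out one replicate number and gives, on a log x axis, the held-out N0.5 CPM as a percentage of the lowest other held-out library, and on the y axis the percentage of features. Outlined bars are the picks made from the other 8 libraries (89, 87 and 96), filled grey bars are features that met the level and N0 conditions in those 8 libraries and were not picked (6618, 6467 and 6626), and the dotted line marks 40%. Values past either end of the axis are drawn in its end bins. The picks lie mostly to the left of the line, and the features not picked are centred near 100%.

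Levels of different features are compared per length, as FPKM. The members' levels were spread more widely than those of the steady features. Their mean FPKM over N1.5, N1 and N0 had a median of 31.7, with quartiles of 12.4 and 88.1. For the steady features the median was 26.7, with quartiles of 16.0 and 46.6. The N0.5 mean as a share of the lowest other mean had a Spearman correlation of 0.18 with level. Members of higher level thus tended to slightly shallower dips. The 92 members share libraries and are not independent.

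The member with the highest level per length was TRINITY_DN6832_c0_g1_i4_3. It stood at 2086, 2144 and 2199 CPM in N1.5 replicates 1, 2 and 3 and at 2326, 2180 and 2255 CPM in N1. Its N0.5 libraries stood at 825, 824 and 823 CPM, and in N0 at 2995, 2729 and 2959 CPM. The 3 N0.5 libraries were nearly equal, all N0 libraries were above all N1.5 and N1 libraries, and no N0.5 library came near another group.

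Its FPKM (mean ± SD, n = 3) was 658 ± 1.54 at 0.5 g/L, and 1729 ± 43.1, 1818 ± 61.2 and 2325 ± 117 at 1.5, 1 and 0 g/L. Its N0.5 mean was 38.4% of its lowest other mean, near the limit of the rule. Among the 8 members highest in FPKM, the N0.5 mean lay between 14.9 and 38.4% of the lowest other mean.

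The member ranked 5 by FPKM had the deepest dip of these 8. It had 730, 723 and 770 CPM in N1.5, 962, 775 and 920 CPM in N1, and 587, 588 and 535 CPM in N0. In N0.5 it had 76.1, 89.3 and 90.002 CPM. The 4 groups did not overlap, with N1 the highest and most widely spread and N0 between N0.5 and N1.5.

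Among the 61 members with N1.5, N1 and N0 means of at least 20 CPM, the deepest dip belonged to TRINITY_DN2240_c0_g1_i2_4. It stood at 23.2, 19.5 and 26.7 CPM in N1.5, 39.4, 26.0 and 28.3 CPM in N1, and 26.3, 29.99 and 21.1 CPM in N0. Its N0.5 libraries stood at 2.32, 2.19 and 3.79 CPM, which is 52, 50 and 85 counts. The N1.5, N1 and N0 libraries overlapped one another, and the N0.5 libraries lay far below all of them, at 11.98% of the lowest other mean.

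The 3 deepest dips belonged to members of lower abundance, whose N0.5 libraries held between 4 and 14 counts each. The deepest, ranked 74 by FPKM, had 9.86, 9.53 and 9.23 CPM in N1.5 and 14.5, 8.44 and 13.2 CPM in N1. It had 8.81, 7.00 and 10.6 CPM in N0, and 0.523, 0.391 and 0.266 CPM in N0.5, from 12, 9 and 6 counts. At such counts the exact depth of a dip is poorly fixed. Its N0.5 mean was 4.46% of its lowest other mean. In the same libraries the features nearly restricted to N0 left a trace with medians of 0.474 to 1.32%, whose spread over features is not given. The part of that trace in the remaining N0.5 level was not tested.

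**Figure D3:**
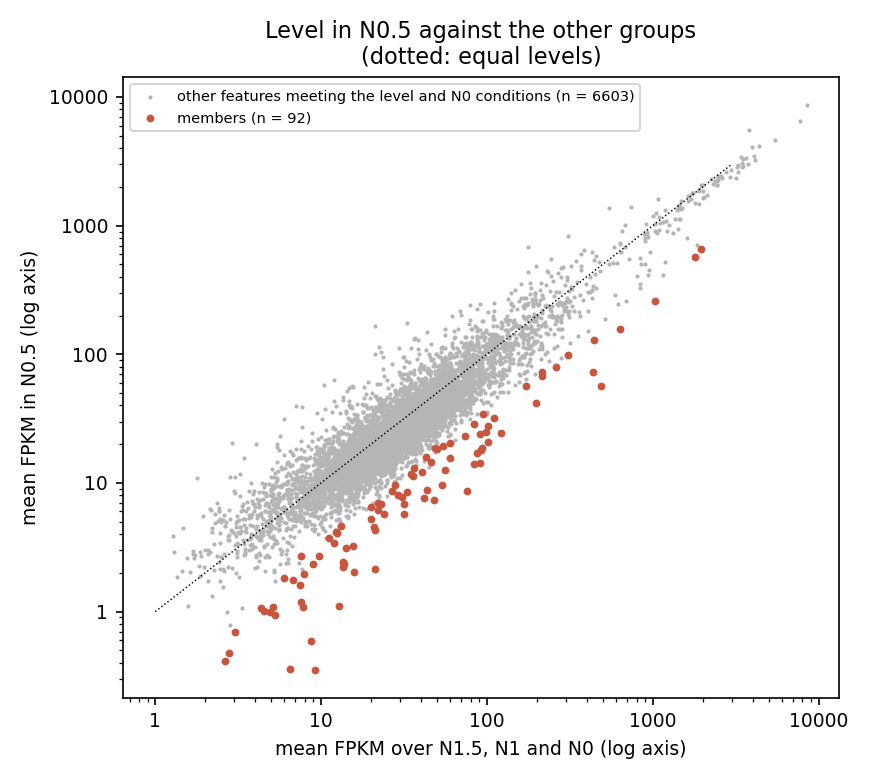
The x axis gives the mean FPKM over N1.5, N1 and N0 and the y axis the mean FPKM in N0.5, both on log axes. Grey points are the 6603 steady features that are not members, red points the 92 members, and the dotted line marks equal levels. The members lie along and beyond the lower edge of the grey points, with some overlap, up to the highest member at 1957 FPKM.

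The spread between libraries of a group was larger for members in N0.5 than in the other groups. The median coefficient of variation (SD as a percentage of the mean) was 10.6% in N0.5, while N1.5 had 6.61%, N1 had 6.66% and N0 had 6.37%. For the steady features N0.5 had 5.14%, and N1.5, N1 and N0 had 5.32, 5.64 and 6.56%. A coefficient above 20% was found for 20 members in N0.5, and for 2, 5 and 3 members in N1.5, N1 and N0. Lower counts in N0.5 move with this difference, and their part in it was not tested.

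Setting N1 beside the control shows whether the members had already changed at a smaller reduction of NaNO3. The rule uses both means but sets no ratio between them. Of the 92 members, 16 fell and 8 rose in N1 by edgeR's quasi-likelihood test at an adjusted p under 0.05, together 24 or 26.1%. Over all 15429 tested features 7.58% were called, with 3.6% lower and 3.97% higher. Over the steady features 4.82% were called, with 1.91% lower and 2.91% higher. The share of members called was above both backgrounds, but the members were chosen by a low N0.5 level and the backgrounds were not. The part of that choice in the difference was not tested. Among the members called, falls outnumbered rises, a balance that turned to 19 higher and 11 lower when N1 replicate 2 was dropped.

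All 24 changes were smaller than 2-fold. The 16 falls had log2 fold changes between -0.98 and -0.48, with a median of -0.65, and the 8 rises had between 0.22 and 0.41, with a median of 0.32. In each of the 24 the N1 libraries did not overlap the N1.5 libraries. Such separation was found in 25 members with N1 above N1.5 and in 25 with N1 below, or 27.2% each way, against 12.1 and 14.5% of all tested features. The median log2 fold change of the 92 members was 0.04.

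The falls were most frequent in members of lower level. Of the 26 members with a mean under 20 CPM over N1.5, N1 and N0, 9 fell and 0 rose. Of the 44 members from 20 to 100 CPM, 6 fell and 4 rose, and of the 22 members at 100 CPM or more, 1 fell and 4 rose. In the same ranges of level 3.72, 1.71 and 1.04% of the steady features fell and 1.33, 3.03 and 3.85% rose, so in the steady features too the balance moved from falls to rises with level.

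The fall in N1 with the largest size was in the member ranked 85 by FPKM. It had 17.0, 15.7 and 14.9 CPM in N1.5, 8.57, 7.19 and 7.94 CPM in N1, 1.98, 2.34 and 1.80 CPM in N0.5 and 9.39, 10.5 and 9.84 CPM in N0. In N1 its log2 fold change was -0.98 ± 0.12 (standard error), with an adjusted p of 0.000257 by edgeR. All 3 N1 libraries and all 3 N0 libraries lay between N0.5 and the control, with N1 below N0.

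The member ranked 27 by FPKM also fell in N1, while its N0 libraries overlapped the control. It had 73.9, 61.7 and 76.8 CPM in N1.5, 38.7, 38.5 and 39.5 CPM in N1, 6.67, 7.67 and 5.36 CPM in N0.5 and 62.7, 71.0 and 56.8 CPM in N0. Against the control the change in N1 was -0.85 ± 0.11 on the log2 scale, with an adjusted p of 0.000304 by edgeR. The 3 N1 libraries lay close together between N0.5 and the control.

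Among the 8 rises, the largest was in the member ranked 26 by FPKM. It had 68.3, 66.03 and 61.6 CPM in N1.5, 87.2, 79.7 and 89.2 CPM in N1, 23.3, 24.6 and 27.4 CPM in N0.5 and 63.9, 67.8 and 60.4 CPM in N0. Its change in N1 was 0.41 ± 0.07 on the log2 scale, with an adjusted p of 0.00269 by edgeR. It was above the control at 1 g/L and below it at 0.5 g/L.

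The members that fell in N1 and those that rose had dips of different median depth in N0.5, where the values come from the rule and the comparisons share the N1.5 libraries. The N0.5 mean was at a median of 24.2% of the lowest other mean in the 16 that fell, 29.7% in the 8 that rose and 32.9% in the 68 not called. For 26 members N1 is itself that lowest other mean.

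**Figure D4:**
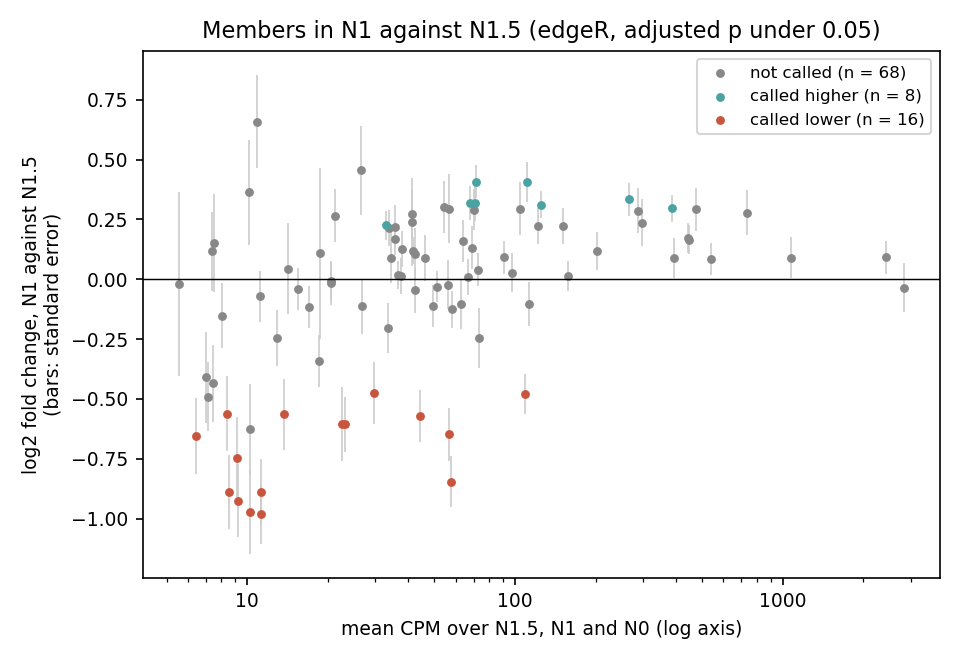
Each point is a member, with its mean CPM over N1.5, N1 and N0 on a log x axis and its log2 fold change in N1 against N1.5 on the y axis, with bars of 1 standard error. Red points fell (16), green points rose (8) and grey points were not called (68). The falls lie mainly at low levels, and 7 of the 8 rises lie above 50 CPM.

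The number of calls in N1 moved with single libraries. It was 15 when N1.5 replicate 1 was dropped, where the share called over all tested features was 4.07%, and 30 when N1 replicate 2 was dropped, where that share was 8.34%. The 4 libraries with the most trace of N0 features were also dropped together, an alternative added once the data had been seen. They are N1.5 replicate 3, N1 replicate 1 and N0.5 replicates 1 and 2. Then 3.47% of all tested features were called, 13 members fell and 0 rose, and 12 of the 16 falls and 0 of the 8 rises were kept. The log2 fold changes of the 8 rises lay between 0.23 and 0.36, all still above 0, with 2 libraries on each side. The part of the trace in the rises was not tested.

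The N0 level was held within 1.5-fold of the average of N1.5 and N1 by the rule, and the following is a description. N0 was above that average in 34 members and below it in 58, with a median ratio of 0.940 and quartiles of 0.795 and 1.06. The lowest of the 3 other group means was N0 in 44 members, N1 in 26 and N1.5 in 22. By edgeR with TMM scaling 27 members were higher and 13 lower in N0 than in N1.5, where 26.6 and 31.2% of all tested features were. With library totals 13 were higher and 35 lower, so the direction of these small differences depended on scaling, and nothing is read from it.

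The names of the features have the form that the Trinity assembler gives to contigs. A name holds a Trinity gene, an isoform number that marks a contig of that gene, and a last number. The files do not say what the last number stands for. Below, features are said to share a Trinity gene or a contig where their names agree up to that part. Whether such features come from the same gene or contig was not tested. By name, the 92 members lie in 90 Trinity genes and on 91 contigs. Only 2 Trinity genes hold a pair of members.

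The length implied by count and FPKM had a median of 1339 bases in members, with a range of 513 to 2680, against a median of 1702 in the steady features. Of the steady features, 1413 (21.1%) were longer than the longest member. Under 1000 bases the shares were alike, at 19.6% of members and 16.5% of steady features.

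Of the 90 Trinity genes with members, 45 (50.0%) held at least 1 further feature, against 46.4% of the Trinity genes with steady features. These 57 further features, called partners, are not members. By name, 29 of them share a contig with a member and 28 lie on another contig of the same Trinity gene. Partners of the same Trinity gene had different last numbers, also where their contigs differed. The rule says nothing of their values except that they did not meet it. Where features share sequence, the counting may have split reads between them, so values of a member and its partner are uncertain. This was not tested.

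Of the partners, 53 were tested, and in N0.5 against N1.5 25 fell and 16 rose by edgeR's test at an adjusted p under 0.05. Together 41 or 77.4% were called, against 61.9% of all tested features, of which 31.3% fell and 30.6% rose. Over the steady features 71.3% were called, with 41.5% lower and 29.8% higher, which is closer to the partners. On the contig of a member, 14 of 25 fell and 7 rose. On another contig, 11 of 28 fell and 9 rose, near both backgrounds in both directions. The 4 partners not tested had group means of at most 0.621 CPM.

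The changes of partners were mostly smaller than the dip. Among the 53, 6 fell and 7 rose by 2-fold or more. The largest fall on another contig had a log2 fold change of -0.95. The median log2 fold change was -0.46 on the contig of a member and -0.11 on another contig.

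The partner with the highest N0.5 level among those that rose was TRINITY_DN2149_c0_g1_i1_1, on another contig than the member of its Trinity gene. It stood at 81.0, 69.7 and 87.1 CPM in N1.5 and at 124, 116 and 122.8 CPM in N1. Its N0.5 libraries stood at 229, 210 and 203 CPM, and in N0 at 161, 133 and 176 CPM. All groups were apart, with N0.5 the highest.

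In N0.5 its change was 1.52 ± 0.12 on the log2 scale, with an adjusted p of 1.39e-07 by edgeR. It also rose in N1, by 0.63 ± 0.12 with an edgeR adjusted p of 0.00578, and in N0, by 1.16 ± 0.12 with an adjusted p of 1.58e-06 by edgeR. The member of the same Trinity gene had 20.8, 21.6 and 21.8 CPM in N1.5, 21.4, 22.1 and 19.3 CPM in N1, 5.63, 7.60 and 7.00 CPM in N0.5 and 19.3, 20.7 and 18.4 CPM in N0. Its N1.5, N1 and N0 libraries lay close together, and its N0.5 libraries lay below all of them.

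The other partner named by rule, TRINITY_DN7943_c0_g1_i1_3, shares a contig with the member ranked 68 by FPKM. It stood at 104, 96.8 and 108 CPM in N1.5 and at 111, 130 and 116 CPM in N1. Its N0.5 libraries stood at 190, 178 and 172 CPM, and in N0 at 42.2, 50.5 and 45.8 CPM. It was highest in N0.5 and lowest in N0, with no overlap between these groups and the rest.

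On the log2 scale it rose by 0.90 ± 0.07 in N0.5, with an edgeR adjusted p of 1.82e-07, and changed by -0.98 ± 0.08 in N0, where edgeR's adjusted p was 7.40e-08. The member on the same contig had 19.3, 25.5 and 11.3 CPM in N1.5, 11.3, 31.5 and 17.0 CPM in N1, and 24.6, 17.4 and 11.2 CPM in N0. In N0.5 it had 2.31, 1.12 and 1.45 CPM. This member varied by over 2-fold between the libraries of each group, and its N0.5 libraries lay below all others.

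Values were also summed over all features of a Trinity gene, as read from the names. Of the 45 Trinity genes with partners, 19 had an N0.5 total of at most 40% of the lowest other group, and the median was 41.9%. In 39 the N0.5 total was below every other group. In the remaining 6 it was above the lowest other group, at up to 433% of it. In these 6 the members held between 13.2 and 41.5% of the total in N1.5 and between 0.887 and 13.4% in N0.5. The totals include the members, whose low N0.5 level comes from the rule. Low totals are therefore favoured by the choice, no share over other Trinity genes is given, and nothing is read from these counts.

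The median share of a Trinity gene's CPM held by its members was 40.9% in N0.5, while N1.5 had 72.1%, N1 had 72.3% and N0 had 68.3%. In 37 of the 45 Trinity genes this share was lower in all 3 N0.5 libraries than in all 9 others. In 17 the members held at least 90% of the total in N1.5. The N0.5 total of these 17 lay between 14.1 and 53.98% of the lowest other group, and in 13 it was at most 40%. The choice of members favours a lower share and a lower total in N0.5, and these values carry no test.

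**Figure D5:**
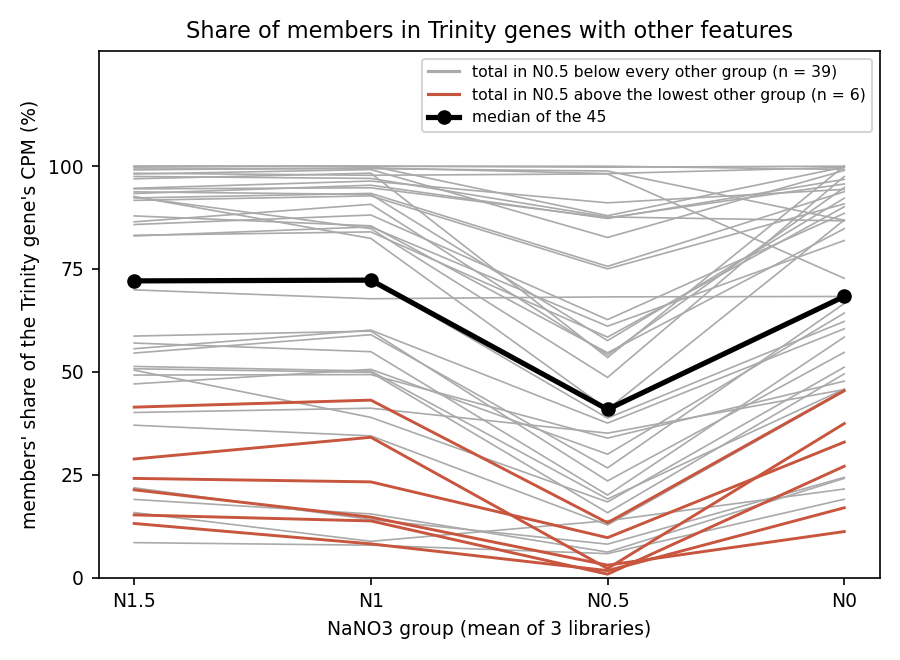
Each line is one of the 45 Trinity genes that hold both members and other features. The y axis gives the members' share of the gene's CPM, as a percentage and mean of 3 libraries, and the x axis the 4 NaNO3 groups. Red lines are the 6 genes whose total in N0.5 was above their lowest other group, and the black line is the median, which goes from 72.1% in N1.5 to 40.9% in N0.5 and back to 68.3% in N0.

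The members close to the edges of the rule differed little from features just outside it. At the dip limit the 3 nearest members stood between 39.7 and 39.9% of their lowest other mean and the 3 nearest features outside at 40.004 to 40.03%. Between 38 and 40% there were 13 members, and between 40 and 42% there were 17 steady features. At the N0 limit the 3 nearest inside were between 1.48- and 1.50-fold and outside between 1.52- and 1.54-fold. At the level limit they were between 5.02 and 5.38 CPM inside and between 4.17 and 4.39 CPM outside.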

How the data were processed

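RNA of 12 libraries was measured by RNA sequencing. Per the labels' protocols, TRIzol extraction, DNase I, oligo(dT) beads and a NEBNext Ultra kit were used. Tools named in the submitters' processing notes, without their roles, are DESeq, Bowtie2 2.4.5 and Trimmomatic 0.40. The sources used here name no counting tool, assembly or annotation. The authors deposited estimated counts, of which 2.41 to 3.66% per library were whole within 0.001, and FPKM values. Each count divided by its FPKM and library total gave one length per feature, with library ratios of 0.995 to 1.01 (1st to 99th percentile).

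Estimated counts were rounded and tested with edgeR 4.0.16 in R 4.3.3 (quasi-likelihood F test, TMM, filterByExpr, all 12 libraries, no covariate). It kept 15429 features, all 92 members among them. P-values are two-sided and Benjamini-Hochberg adjusted over all tested features. Standard errors were taken as log2 fold change over the root of F. CPM values use library totals. The test was tried on simulated data. Alternatives used DESeq2 1.42.0 and limma 3.58.1. The members and lists were chosen with earlier results of these data known. Named are the member highest in FPKM, the deepest dip at 20 CPM or more, and the 2 rising partners highest in N0.5. Members given by rank were chosen after their values were seen. P-values set a difference between groups against the spread between these libraries.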

Additional observations from a re-analysis of the deposited data

How the results depend on the processing

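The count of members depended on the limits of the rule. With a dip of at most 0.3 it was 43, with at most 0.5 it was 206, and with a narrower range for N0 it was 55. With TMM scaling it was 94, with 75 of the 92 kept, and with RLE scaling 94, with 70 kept. Without single libraries it lay between 87 and 99, and without the 4 libraries with the most trace, chosen after seeing the data, it was 92, with 77 kept. Leaving out those 4 leaves 1 library in N0.5, so this dip rests on N0.5 replicate 3 alone. Members called in N1 numbered 15 at an adjusted p under 0.01 and 13 without those 4 libraries, and between 15 and 30 without single libraries. DESeq2 called 31, where it called 9.60% of all features it tested. Library totals gave 26, where 7.97% of all tested features were called. Partners called in N0.5 numbered between 36 and 42 over the other alternatives and 30 without those 4 libraries, where the lone N0.5 library is assumed to vary like the other groups. Held-out dips numbered 244 of 300 picks with TMM scaling and 263 of 272 with a held-out limit of 0.5. The replicate block gave 24 members and 40 partners. No share over all features is given here for the replicate block, the cutoff of 0.01 or the partner counts, so nothing is read from those. The check for pairing covered N1.5 with N1 and N1.5 with N0.5, where same-numbered deviations had correlations between -0.064 and 0.046, so the numbers were not taken as pairs. No named feature changed sign in the alternatives run, but TRINITY_DN6832_c0_g1_i4_3 stood just outside the dip limit with TMM or RLE scaling. Counts of 4 to 14 per N0.5 library limit the depth of the deepest dips.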

Other observations

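Without the N0 condition, 162 features met the level and dip conditions. Of these, 46 had an N0 mean below the 1.5-fold range and 24 above it. Over all features that met the level condition, 2499 were below the range and 902 above it. With TMM scaling the dipping features split 44 and 29, and all features 1918 and 1234.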
